A study of Mus musculus with 6 samples.

Results

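The genes described here encode 10 proteins of the hepatic acute phase response, namely Saa1, Saa2, Saa3, Orm1, Orm2, Lcn2, Hp, Serpina3n, Crp and Socs3. They were chosen by symbol, through the GENCODE annotation of GRCm39, and each symbol matched 1 of the 55357 gene rows in the count table. Liver RNA came from WT C57BL6/J male mice aged 8 to 9 weeks that were gavaged daily for 7 days with 2.5% Tween-80, the vehicle, or with esculetin, a coumarin derivative. Both groups ate a control diet with 10% of its kcal from fat for 4 days and a high-fat diet (HFD) with 60% of its kcal from fat for the last 3 days, so neither group shows the liver without HFD. Each group had 3 libraries, and each library pooled the livers of 2 mice, so the spread between libraries is a spread between pools. The sources differ on the esculetin dose. Sample titles, count columns and the treatment protocol give 180 mg/kg/d, whereas the treatment entry of the same samples gives 90. The paper describes liver sequencing at both doses in a supplementary legend, and at 90 alone in other legends. The animals are therefore called the esculetin group. The libraries held between 27957713 and 34920922 counts, and the 3 esculetin libraries were the deepest of the 6. A count of 3 corresponded to between 0.0859 and 0.107 CPM, a count scaled to the size of its library, and the lowest count of any of the 10 genes in any library was 46, for Lcn2.

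Acute phase proteins are plasma and stress proteins whose hepatic production changes within hours of infection or tissue injury. Interleukin-6 acts through its receptor, gp130, JAK kinases and STAT3, and interleukin-1 acts through NF-κB, and both pathways meet with C/EBPβ and C/EBPδ at the promoters of these genes in hepatocytes. Positive acute phase genes are induced, negative ones such as albumin are repressed, and SOCS3 is induced by STAT3 and shuts the cytokine signal off. Crp is only weakly inducible in the mouse, where serum amyloid A and serum amyloid P carry more of the response.

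Several members lie beside close paralogs. On GRCm39, Saa3 (chr7:46361422-46365576, minus strand), Saa1 (chr7:46389916-46392547, minus strand) and Saa2 (chr7:46401214-46403737, plus strand) share a cluster with Saa4 (chr7:46377406-46382035). Orm1 (chr4:63261052-63272189), Orm3 (chr4:63274208-63277748) and Orm2 (chr4:63280686-63284115) lie in a row on the plus strand. The first 90 coding bases are shown because they show how far reads can tell the copies apart. Capitals mark bases that differ from Saa1 or from Orm1 at the same position, 4 in Saa2, 44 in Saa3, 11 in Orm2 and 21 in Orm3. No gaps were allowed, and the coding sequence is 618 bases in Orm3 and 621 in Orm1. A shift therefore adds to the count of Orm3.
Saa1 coding start: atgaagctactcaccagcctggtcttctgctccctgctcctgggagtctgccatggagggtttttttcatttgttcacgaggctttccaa
Saa2 coding start: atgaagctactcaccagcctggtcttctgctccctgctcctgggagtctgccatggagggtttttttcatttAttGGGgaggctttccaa
Saa3 coding start: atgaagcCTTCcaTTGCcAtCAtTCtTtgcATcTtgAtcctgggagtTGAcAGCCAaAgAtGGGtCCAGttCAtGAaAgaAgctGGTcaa
Orm1 coding start: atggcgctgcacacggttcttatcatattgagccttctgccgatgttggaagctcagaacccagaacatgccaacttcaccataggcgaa
Orm2 coding start: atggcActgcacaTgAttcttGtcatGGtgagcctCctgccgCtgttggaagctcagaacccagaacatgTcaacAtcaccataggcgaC
Orm3 coding start: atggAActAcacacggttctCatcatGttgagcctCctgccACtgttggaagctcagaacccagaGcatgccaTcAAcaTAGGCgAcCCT
Over the whole coding sequence Saa1 and Saa2 were 95.1% identical, Saa1 and Saa3 75.7%, Orm1 and Orm2 89.9%, Orm1 and Orm3 86.0%, and Orm2 and Orm3 87.9%. Distinct windows of 150 bases, the read length of these libraries, were taken from all annotated transcripts of each gene. Of these windows 72 of 3996 in Saa1 (1.80%) and 72 of 2867 in Saa2 (2.51%) were shared with each other. No window of Saa3, Orm1, Orm2, Lcn2, Hp, Serpina3n or Socs3 occurred in another annotated gene. For Crp, 2.85% of windows were shared with Gm38051, a pseudogene on the same strand that overlaps it. The canonical transcripts of Saa1, Saa2 and Crp, at 757, 652 and 1714 bases, hold fewer windows, so the shares within them can be larger. How the study counted reads with several matches, and whether it used strand, are not given in the sources used here. The values of Saa1, Saa2 and Crp are therefore uncertain, to an extent that was not measured. Part of the Orm1 and Socs3 exons is covered by annotated transcripts on the opposite strand, 14.5% and 11.8% of their bases.

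Promoters of 8 of the 10 members, all but Orm1 and Hp, were found in the RefSeq promoter table of GRCm38.p6. Each was 300 bases long, from 250 before to 50 after the start, and matched a single place in GRCm39. They were searched on both strands for the C/EBP letters TTGCNNAA (TTNNGCAA), the STAT letters TTCNNNGAA and the NF-κB letters GGNNNTTCC (GGAANNNCC). The C/EBP letters occurred in 5 of the 8 (Saa1, Saa2, Saa3, Orm2 and Lcn2) and in 10.8% of all 32817 promoters in the table. The STAT letters occurred in Socs3 (8.29% of all promoters) and the NF-κB letters in Saa3 and Serpina3n (18.5% of all promoters). The 5 promoters with the C/EBP letters are shown because they include the 4 members that varied most between libraries, with each motif match in capitals and GRCm39 coordinates. Saa3, with both kinds of letters, had a spread near the median of all genes. The C/EBP letters also occurred in the promoters of the paralogs Saa4 and Orm3. A link between the letters and the spread was not tested.
Saa1 promoter, chr7:46392355-46392654, minus strand: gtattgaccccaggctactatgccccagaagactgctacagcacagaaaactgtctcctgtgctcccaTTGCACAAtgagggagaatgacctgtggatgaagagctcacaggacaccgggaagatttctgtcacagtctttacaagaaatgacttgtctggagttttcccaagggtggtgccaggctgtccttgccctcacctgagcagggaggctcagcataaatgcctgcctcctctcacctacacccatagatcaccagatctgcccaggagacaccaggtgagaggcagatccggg
Saa2 promoter, chr7:46401007-46401306, plus strand: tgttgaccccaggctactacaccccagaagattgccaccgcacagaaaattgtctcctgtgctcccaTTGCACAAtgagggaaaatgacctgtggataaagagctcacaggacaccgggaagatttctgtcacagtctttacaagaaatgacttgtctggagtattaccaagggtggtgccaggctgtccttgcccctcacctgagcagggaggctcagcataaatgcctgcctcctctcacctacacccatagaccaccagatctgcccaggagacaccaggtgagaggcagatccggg
Saa3 promoter, chr7:46365051-46365350, minus strand: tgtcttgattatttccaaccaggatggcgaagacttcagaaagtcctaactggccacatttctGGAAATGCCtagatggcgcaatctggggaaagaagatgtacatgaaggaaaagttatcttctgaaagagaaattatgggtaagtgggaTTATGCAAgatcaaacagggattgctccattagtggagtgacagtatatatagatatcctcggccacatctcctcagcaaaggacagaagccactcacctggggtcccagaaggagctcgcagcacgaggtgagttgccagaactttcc
Orm2 promoter, chr4:63280436-63280735, plus strand: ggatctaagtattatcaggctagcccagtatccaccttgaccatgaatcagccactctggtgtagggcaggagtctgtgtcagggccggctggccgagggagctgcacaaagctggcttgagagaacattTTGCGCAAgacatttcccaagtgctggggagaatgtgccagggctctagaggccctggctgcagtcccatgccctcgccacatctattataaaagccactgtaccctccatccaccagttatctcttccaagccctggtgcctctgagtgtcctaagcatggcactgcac
Lcn2 promoter, chr2:32277702-32278001, minus strand: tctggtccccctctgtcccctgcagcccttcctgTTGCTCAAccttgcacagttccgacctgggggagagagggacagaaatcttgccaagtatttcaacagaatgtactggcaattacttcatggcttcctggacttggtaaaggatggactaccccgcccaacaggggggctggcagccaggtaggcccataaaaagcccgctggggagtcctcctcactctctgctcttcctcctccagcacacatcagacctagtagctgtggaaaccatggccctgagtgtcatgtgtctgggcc
Counted from the start, the C/EBP match began at -182 in Saa1, -183 in Saa2, -99 in Saa3, -120 in Orm2 and -216 in Lcn2, and the NF-κB match in Saa3 at -187. A match of letters does not show that a factor was bound.

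No member passed the thresholds of the study, an unadjusted p-value under 0.05 with a fold change over 1.5, in the comparison of esculetin with vehicle by edgeR's quasi-likelihood test over 14433 genes. In that comparison 3.13% of all genes tested passed, 198 higher and 254 lower with esculetin. Crp and Socs3 had an unadjusted p-value under 0.05, 2 of 10 members against 11.9% of all genes tested. By DESeq2, 0 members passed both thresholds and 2 had a p-value under 0.05, and by limma-voom the numbers were 1 (Lcn2) and 3. No member had a p-value under 0.05 after Benjamini-Hochberg (BH) adjustment over all genes tested in the edgeR fit, where 6 genes in all did. The fitted log2 fold change was positive for 8 members and negative for 2, with a median of 0.17 against -0.008 over all genes tested. Only Crp had groups that did not overlap, 1 of 10 members, where 17.4% of all genes tested did not overlap. Thinning every library to the smallest total gave 1 member past the thresholds, Socs3.

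**Figure D1:**
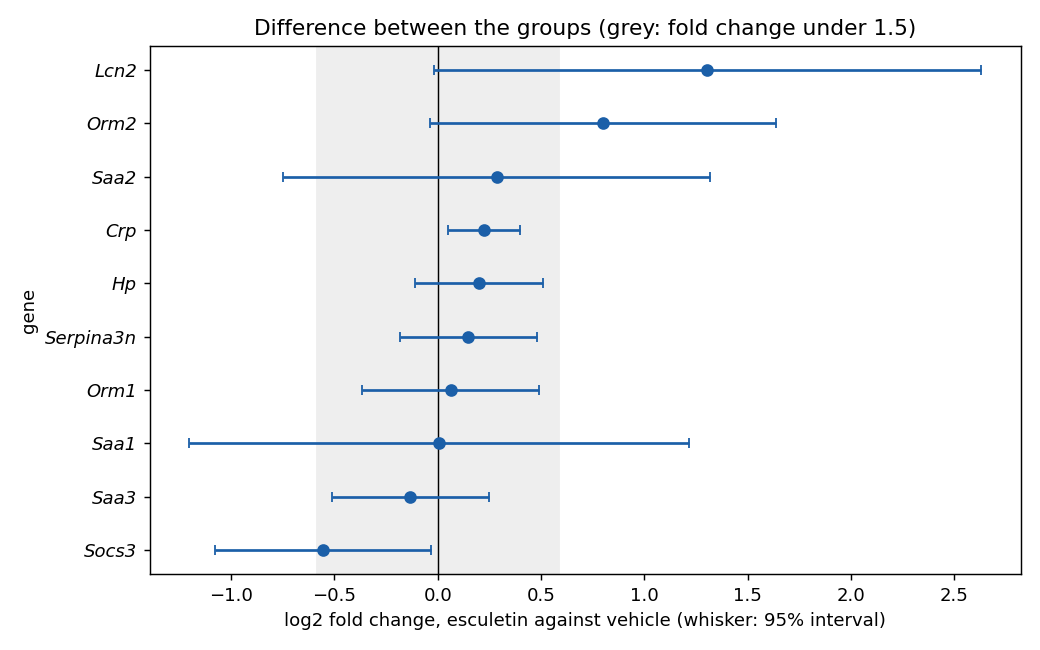
Log2 fold change of each member with esculetin against vehicle (points) with its 95% interval (whiskers), from edgeR, 3 libraries per group. The intervals of Saa1, Saa2, Orm2 and Lcn2 are the widest, those of Crp and Socs3 leave out 0, and that of Crp lies within the grey band of fold changes under 1.5.

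Per length of the canonical transcript, the members spanned a wide range of levels. Over the 6 libraries the median RPKM, which is CPM divided by the transcript length in kilobases, was 2200.0 for Hp, 874 for Orm1, 275 for Crp, 198 for Serpina3n and 139 for Saa1. It was 39.0 RPKM for Saa2, 11.7 for Orm2, 7.12 for Lcn2, 6.84 for Saa3 and 1.18 for Socs3. The libraries of Hp, Orm1 and Crp did not overlap with those of the next gene in this order, nor did those of Saa3 with Socs3. From Serpina3n down to Saa3, the range of each gene over the 6 libraries overlapped with that of the next one. Within single libraries the order was steadier, since Saa1 was above Saa2, Saa2 above Orm2 and Orm2 above Lcn2 in all 6. Serpina3n was above Saa1 in 4 of 6 libraries and Lcn2 above Saa3 in 4 of 6.

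Serum amyloid A1 and A2 are secreted apolipoproteins that ride on high-density lipoprotein, and their liver genes are among the most inducible of the response. Saa1 had 44.9, 126 and 218 CPM in vehicle libraries 1, 2 and 3, and 234, 70.7 and 84.8 CPM in esculetin libraries 1, 2 and 3. Each group thus held libraries both low and high, and the groups overlapped almost fully. The means were 129 ± 86.4 and 130 ± 90.6 CPM (SD, n = 3 libraries each), and the log2 fold change was 0.01 with a 95% interval from -1.20 to 1.22 (SE 0.54, edgeR BH-adjusted p = 0.998). Its sign turned when a single library was left out, to -0.40 without vehicle 1, -0.01 without vehicle 2 and -0.73 without esculetin 1.

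Saa2 had 11.0, 18.8 and 50.4 CPM in the vehicle libraries, and 46.6, 25.9 and 24.9 CPM in the esculetin libraries. The vehicle group held both the lowest and the highest library, and all 3 esculetin libraries fell between them. The means were 26.7 ± 20.9 and 32.5 ± 12.3 CPM (SD, n = 3), and the log2 fold change was 0.29 (SE 0.46, 95% interval -0.75 to 1.32, edgeR BH-adjusted p = 0.853). Vehicle 3 decided this value, since without it the log2 fold change was 1.13 and passed both thresholds. Without vehicle 1 it was -0.09, and without esculetin 1 it was -0.07.

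Saa3, which in the mouse is also made outside the liver, in macrophages and adipose tissue, did not follow Saa1 and Saa2. It had 6.91, 7.00 and 6.86 CPM in the vehicle libraries and 7.87, 5.33 and 5.76 CPM in the esculetin libraries. The vehicle libraries were almost equal, and the esculetin libraries lay on both sides of them. The log2 fold change was -0.13 (SE 0.17, 95% interval -0.51 to 0.25, edgeR BH-adjusted p = 0.807), and it was -0.32 without esculetin 1, -0.02 without esculetin 2 and -0.07 without esculetin 3.

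Orosomucoids 1 and 2, also called α1-acid glycoproteins, are secreted lipocalins that bind drugs and dampen inflammation. Orm1 had 540, 728 and 965 CPM in the vehicle libraries, and 930, 685 and 715 CPM in the esculetin libraries. As for Saa2, the vehicle libraries enclosed the esculetin libraries. The log2 fold change was 0.06 (SE 0.19, 95% interval -0.37 to 0.49, edgeR BH-adjusted p = 0.937), and it was -0.12 without vehicle 1 and -0.09 without esculetin 1. Orm2 had 3.81, 7.46 and 10.4 CPM in the vehicle libraries, and 19.6, 9.46 and 8.72 CPM in the esculetin libraries. Esculetin 1 stood well above all others, and vehicle 3 stood above the remaining esculetin libraries, so the groups overlapped. The means were 7.23 ± 3.31 and 12.6 ± 6.06 CPM (SD, n = 3), and the log2 fold change was 0.80 (SE 0.37, 95% interval -0.04 to 1.64, edgeR BH-adjusted p = 0.444). Orm2 passed both thresholds without vehicle 3 (1.15), without esculetin 2 (0.97) and without esculetin 3 (1.01), and its lowest value over the alternatives was 0.33.

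**Figure D2:**
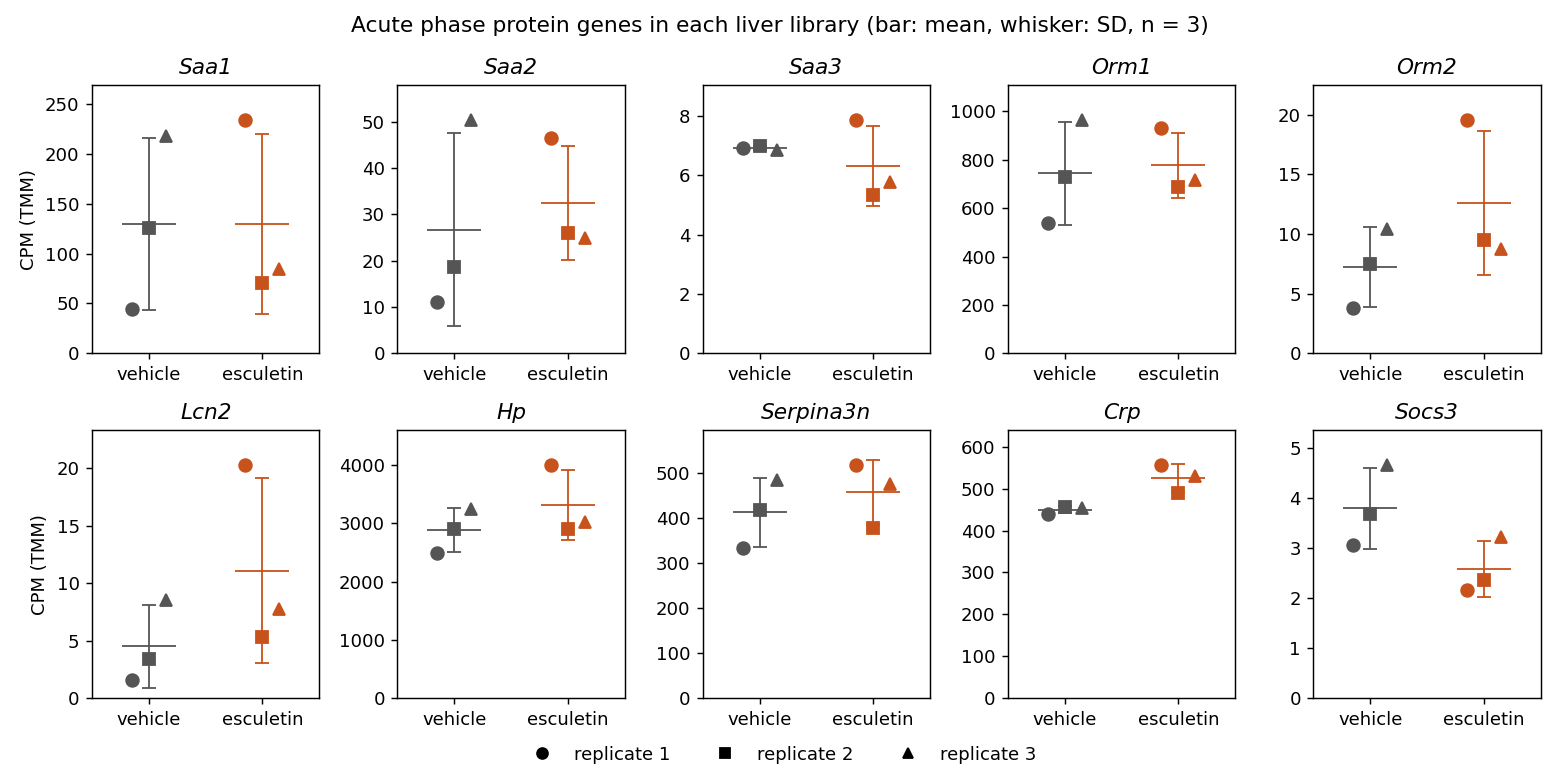
CPM of each member in the 3 vehicle (grey) and 3 esculetin (orange) libraries, symbols giving the replicate number, with the group mean (bar) and SD (whisker), each panel on its own axis from 0. Vehicle 1 was the lowest vehicle library and vehicle 3 the highest in Saa1, Saa2, Orm1, Orm2, Lcn2, Hp, Serpina3n and Socs3, and esculetin 1 was the highest esculetin library in all but Socs3.

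Lipocalin 2 binds bacterial siderophores and so withholds iron, and it is made by stressed hepatocytes and by neutrophils. Lcn2 had 1.57, 3.41 and 8.57 CPM in the vehicle libraries, and 20.3, 5.30 and 7.73 CPM in the esculetin libraries. Esculetin 1 was far above the rest, and vehicle 3 exceeded esculetin 2 and 3. The means were 4.51 ± 3.63 and 11.1 ± 8.03 CPM (SD, n = 3), and the log2 fold change was 1.31 (SE 0.59, 95% interval -0.02 to 2.63, edgeR BH-adjusted p = 0.429), the largest among the members. Single libraries moved this value from 0.54 without esculetin 1 to 2.15 without vehicle 3, and it passed both thresholds without vehicle 3, without esculetin 2 (1.64) or without esculetin 3 (1.51). The summed level of 10 neutrophil and monocyte markers was 6.09, 6.11 and 7.91 CPM in the vehicle libraries and 9.83, 5.48 and 7.91 CPM in the esculetin libraries. Of these markers 5 had enough counts to be tested, Mpo was at 0 in every library, and S100a9, a granulocyte calcium-binding protein, passed both thresholds with a log2 fold change of 0.99 (SE 0.43, edgeR BH-adjusted p = 0.403). The other tested markers did not pass and went both ways, with log2 fold changes of 0.35 for Ccr2, 0.29 for S100a8, -0.26 for Ly6c2 and -0.39 for Csf3r, whose groups did not overlap. Of all genes tested, 3.13% passed both thresholds and 17.4% had groups that did not overlap. The part of neutrophils and monocytes in the Lcn2 values was not tested. In bulk liver more cells of a type and more RNA per cell cannot be told apart.

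Haptoglobin binds free hemoglobin and was the most abundant member. Hp had 2492, 2896 and 3245 CPM in the vehicle libraries, and 3993, 2901 and 3022 CPM in the esculetin libraries. Esculetin 1 was the highest library, and esculetin 2 and 3 lay within the range of the vehicle libraries. The log2 fold change was 0.20 (SE 0.14, 95% interval -0.11 to 0.51, edgeR BH-adjusted p = 0.611), and it was 0.04 without esculetin 1 and 0.11 without vehicle 1. Serpina3n, a secreted serine protease inhibitor related to human α1-antichymotrypsin, had 333, 418 and 484 CPM in the vehicle libraries, and 517, 377 and 475 CPM in the esculetin libraries. Its groups overlapped too, and its log2 fold change was 0.15 (SE 0.15, 95% interval -0.18 to 0.48, edgeR BH-adjusted p = 0.746). It was 0.02 without vehicle 1, 0.05 without esculetin 1, 0.27 without esculetin 2 and 0.28 without vehicle 3.

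C-reactive protein is a pentraxin that binds phosphocholine on damaged cells and microbes. Crp had 440, 455 and 454 CPM in the vehicle libraries, and 556, 489 and 530 CPM in the esculetin libraries. All 3 esculetin libraries lay above all 3 vehicle libraries, with means of 450 ± 8.24 and 525 ± 33.8 CPM (SD, n = 3). The log2 fold change was 0.22 (SE 0.077, 95% interval 0.05 to 0.40), with an unadjusted p of 0.0166 by edgeR's quasi-likelihood test and a BH-adjusted p of 0.306. Without esculetin 1 the log2 fold change of Crp was 0.18 and its unadjusted p by edgeR's quasi-likelihood test was 0.0628. In the fit to all libraries the difference stayed below a fold change of 1.5 over the whole interval.

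Suppressor of cytokine signaling 3 inhibits JAK kinases bound to gp130 and is not a plasma protein but the feedback arm of the response. Socs3 had 3.06, 3.68 and 4.67 CPM in the vehicle libraries, and 2.18, 2.36 and 3.22 CPM in the esculetin libraries. Esculetin 3 lay just above vehicle 1, and otherwise the esculetin libraries were the lower ones. The means were 3.81 ± 0.809 and 2.59 ± 0.559 CPM (SD, n = 3), and the log2 fold change was -0.55 (SE 0.23, 95% interval -1.08 to -0.03), with an unadjusted p of 0.0401 by edgeR's quasi-likelihood test and a BH-adjusted p of 0.393. It passed both thresholds without vehicle 1 (-0.69) and without esculetin 3 (-0.74). Leaving out any other library took the unadjusted p of edgeR's quasi-likelihood test over 0.05, to between 0.0684 without vehicle 2 and 0.162 without vehicle 3, where the log2 fold change was -0.38, and it was -0.44 without esculetin 1 and -0.49 without esculetin 2.

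The members shared an order of the libraries. Vehicle 1 was the lowest of all 6 libraries in 8 of 10 members, against 17.0% of all genes tested. Esculetin 1 was the highest in 7 of 10, against 19.9%, and vehicle 3 was the highest in the other 3. In 7 of 10 members vehicle 1 was the lowest and vehicle 3 the highest vehicle library while esculetin 1 was the highest esculetin library, against 6.98% of all genes tested. These orders were read from the members' own values, so the shares over all genes are a description and not a test. The mean of the members' log2 CPM, each centred on its mean over the libraries, was -0.68, -0.12 and 0.39 in the vehicle libraries and 0.58, -0.17 and 0.0017 in the esculetin libraries.

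**Figure D3:**
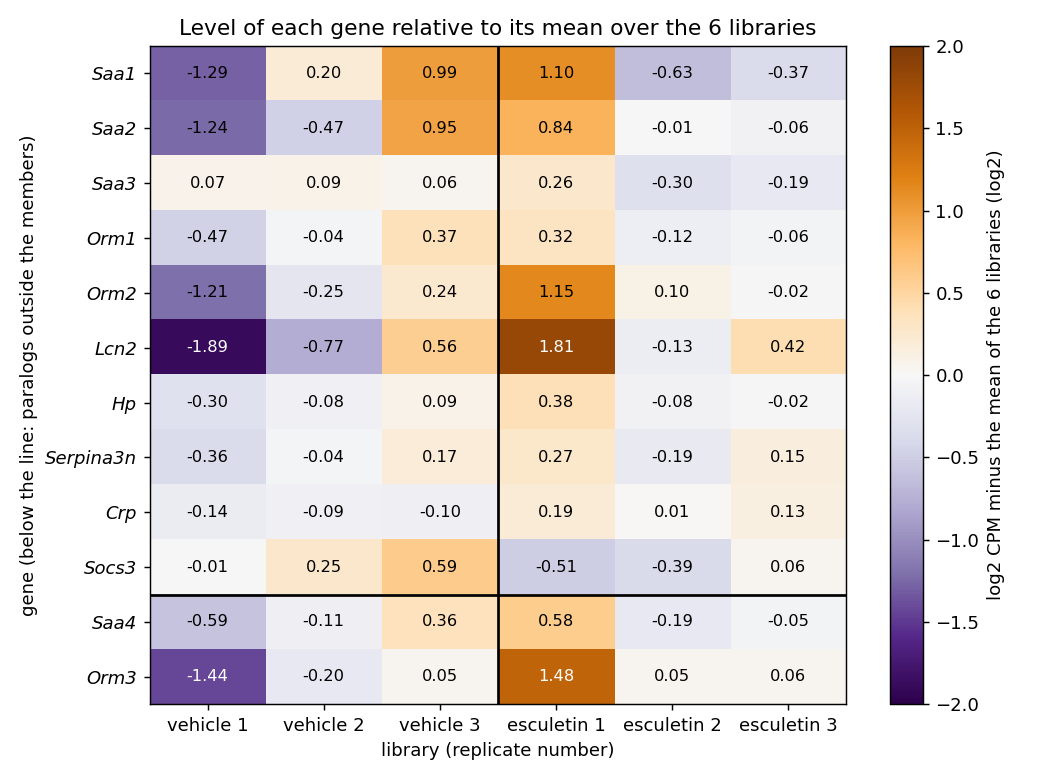
Log2 CPM of each member, and of Saa4 and Orm3 below the line, minus its mean over the 6 libraries, with purple for lower and orange for higher values and the vehicle libraries left of the vertical line. Vehicle 1 is low and vehicle 3 and esculetin 1 are high in 7 members and in Saa4, from -1.89 to 1.81 in Lcn2, while Saa3, Crp and Socs3 do not follow that order.

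Saa1, Saa2, Orm1, Orm2, Lcn2, Hp and Serpina3n, set apart from the others after their values were seen, moved closely together. Over the 6 libraries the 21 pairs among these 7 genes had a Pearson r of log2 CPM between 0.802 and 0.972, with a median of 0.879, and between 0.839 and 0.988 for deviations from the group means. The 24 pairs that include Saa3, Crp or Socs3 ranged from -0.631 to 0.802, with a median of 0.214, and from -0.371 to 0.851 for deviations from the group means, so on that scale the ranges of both sets of pairs overlapped. All these values are descriptions over the same 6 libraries, which share depth, pooling and composition, and the pairs are not independent of each other.

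The spread between libraries of the same group was wide for 4 of the 10 members. The SD of log2 CPM within groups was 1.10 for Lcn2, 1.05 for Saa1, 0.86 for Saa2 and 0.69 for Orm2, which were above 99.1%, 99.0%, 97.7% and 94.7% of all genes tested. It was 0.34 for Orm1, 0.30 for Socs3, 0.25 for Serpina3n, 0.22 for Hp, 0.21 for Saa3 and 0.069 for Crp, the last above only 8.83% of genes. The median over the members was 0.318, against 0.186 over all genes tested. The highest vehicle library exceeded the lowest by 4.84 times for Saa1, 4.59 for Saa2, 2.74 for Orm2 and 5.47 for Lcn2, a ratio over 2 that 12.0% of all genes tested had. In the esculetin group the ratio was 3.31 for Saa1, 2.24 for Orm2 and 3.82 for Lcn2, but 1.87 for Saa2, and 12.2% of all genes tested exceeded 2.

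**Figure D4:**
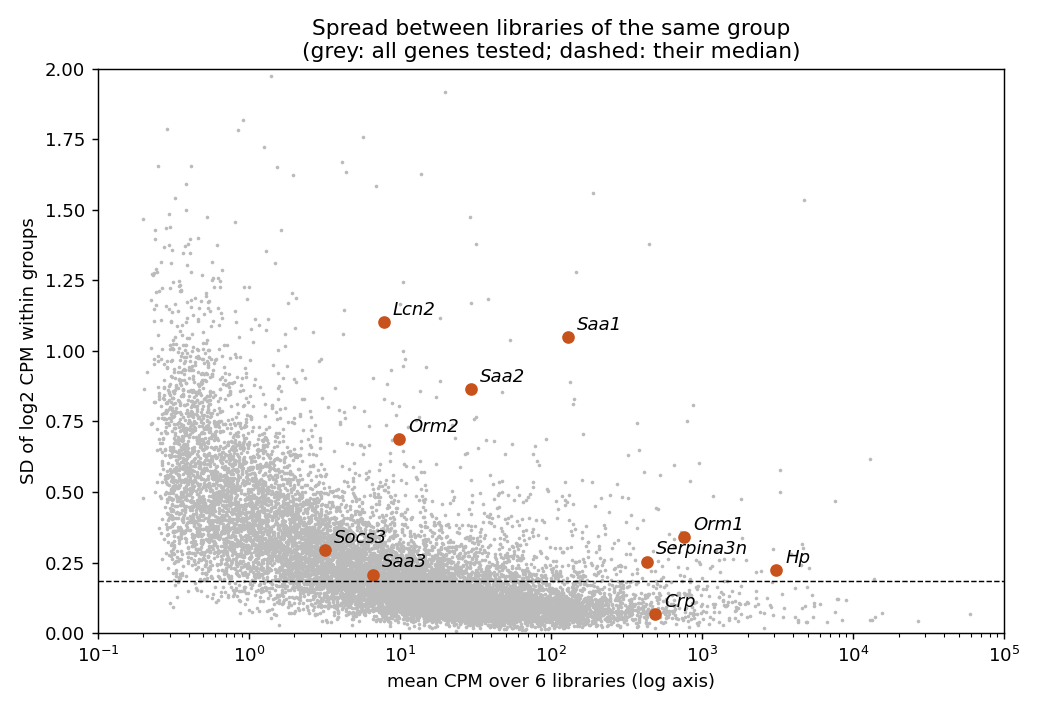
SD of log2 CPM within groups (vertical axis) against mean CPM over the 6 libraries (log axis) for the members (orange) and all genes tested (grey), with the median of all genes dashed and genes above 2 not drawn. Lcn2, Saa1, Saa2 and Orm2 lie near the top of the grey points, and Crp lies below the median.

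Saa1 and Orm1 took most of the reads of their close copies in every library. Saa1 took 80.3%, 87.0% and 81.2% of the summed Saa1 and Saa2 counts in the vehicle libraries, and 83.4%, 73.2% and 77.3% in the esculetin libraries. The difference of the means was -4.89 percentage points (exact permutation test, two-sided p = 0.3, where 0.1 is the smallest p that 3 against 3 libraries allow). It was -2.51 points without esculetin 2, -2.81 without vehicle 2 and -7.61 without esculetin 1. The exact binomial 95% intervals, which cover counting error only, were 78.3% to 82.2% in vehicle 1 and 71.7% to 74.7% in esculetin 2. Orm2 took 0.700%, 1.01% and 1.07% of the summed Orm1, Orm2 and Orm3 counts in the vehicle libraries and 2.04%, 1.35% and 1.20% in the esculetin libraries. The groups did not overlap, being higher in all 3 esculetin libraries, with means of 0.926% ± 0.197 and 1.53% ± 0.447 (SD, n = 3; exact permutation test, two-sided p = 0.1, the smallest possible). The share of Orm1 was 98.7% ± 0.279 and 97.8% ± 0.724 (SD, n = 3; exact permutation p = 0.1), a difference of -0.928 points that was -0.513 without esculetin 1.

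Of 35 other positive acute phase genes, 34 were tested, 5 passed both thresholds as higher with esculetin and 1 as lower, and 9 had a p-value under 0.05, where 3.13% and 11.9% of all genes tested did. Their median log2 fold change was 0.14, against -0.008 over all genes tested. Mt1, a metallothionein that buffers zinc, had 3.06, 4.73 and 4.67 CPM with vehicle and 35.2, 5.51 and 9.44 CPM with esculetin, and rose by a log2 fold change of 2.01 (SE 0.58, edgeR BH-adjusted p = 0.242). All 3 esculetin libraries were above the vehicle libraries, but esculetin 1 carried much of the size, and the log2 fold change was 0.85 without it. Mt1 did not pass with limma-voom. Hamp2 had 20.4, 14.0 and 11.2 CPM with vehicle and 18.4, 40.6 and 45.8 CPM with esculetin, with a log2 fold change of 1.20 (edgeR BH-adjusted p = 0.204). Its order of libraries was unlike that of the members, since esculetin 1 was the lowest esculetin library. Hamp, which encodes hepcidin, the hormone that limits iron export, had 289, 178 and 277 CPM with vehicle and 552, 298 and 437 CPM with esculetin, with a log2 fold change of 0.79 (edgeR BH-adjusted p = 0.240). Hamp and Hamp2 are close paralogs, and the split of reads between them is uncertain.

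Serpina3m, a paralog of Serpina3n, had 312, 277 and 297 CPM with vehicle and 567, 377 and 410 CPM with esculetin, with a log2 fold change of 0.61 (edgeR BH-adjusted p = 0.161). Orm3 had 1.23, 2.88 and 3.43 CPM with vehicle and 9.27, 3.43 and 3.46 CPM with esculetin, with a log2 fold change of 1.10 (edgeR BH-adjusted p = 0.381). Its esculetin 2 and 3 were at the level of vehicle 3, and the log2 fold change was 0.46 without esculetin 1. Without esculetin 1, Hamp (0.57), Serpina3m (0.41) and Orm3 no longer passed both thresholds, and 3 of the list did. Orm3 did not pass them without vehicle 1 (0.77) or vehicle 2 (1.22) either, nor with DESeq2, with limma-voom or after thinning, and Serpina3m did not without vehicle 2 (0.57). Serpina1e, an α1-antitrypsin copy with near-identical neighbours, had 6791, 11519 and 12818 CPM with vehicle and 6306, 4473 and 3410 CPM with esculetin, and fell by 1.13 on the log2 scale (edgeR BH-adjusted p = 0.155). Its neighbours had positive log2 fold changes, and the split of reads among these copies is uncertain. Serpina1c had 776, 688 and 787 CPM with vehicle and 994, 1055 and 1168 CPM with esculetin (log2 fold change 0.52, edgeR BH-adjusted p = 0.132), with groups that did not overlap. Groups did not overlap for 8 of the 34 tested genes of this list, against 17.4% of all genes tested. The log2 fold changes of Serpina1b, Serpina1d and Serpina1a were 0.19, 0.11 and 0.07. Besides the 6 genes called, Serpina1b, Serpina1c and Mbl2, a mannose-binding lectin (0.37), reached an unadjusted p-value under 0.05, each at less than 1.5-fold.

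Among 11 negative acute phase genes none passed both thresholds by edgeR, 1 had an unadjusted p-value under 0.05 (11.9% of all genes tested), and the median log2 fold change was 0.01. That gene was Serpina6, the corticosteroid-binding globulin, with 318, 180 and 199 CPM with vehicle and 356, 287 and 336 CPM with esculetin (log2 fold change 0.49, edgeR BH-adjusted p = 0.355). Without vehicle 1 its log2 fold change was 0.79 and passed both thresholds (edgeR BH-adjusted p = 0.0275). Apoa1, the main protein of high-density lipoprotein, had a log2 fold change of 0.01 (SE 0.095, edgeR BH-adjusted p = 0.973).

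**Figure D5:**
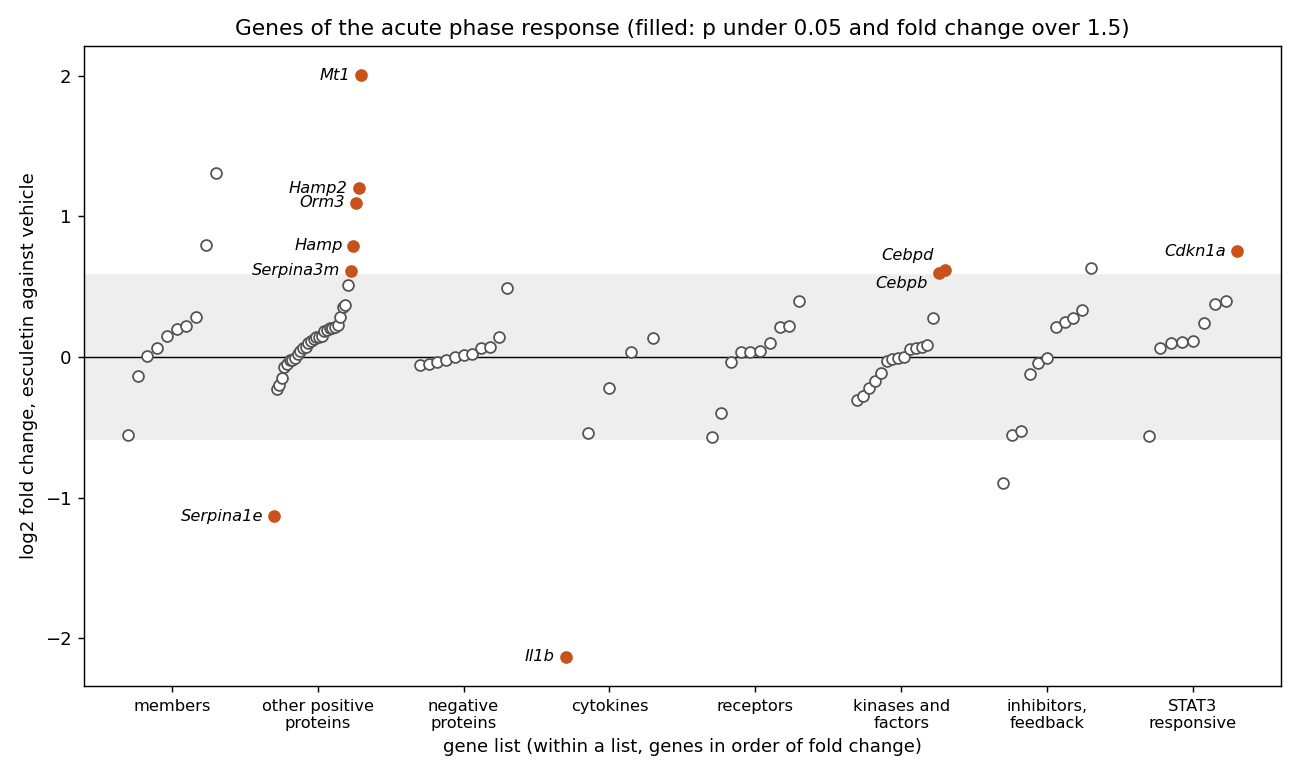
Log2 fold change with esculetin against vehicle of every tested gene of the acute phase lists, in order of fold change within each list, with filled points for genes past both thresholds and the grey band for fold changes under 1.5. No member is filled, 6 of the other positive genes are, and Il1b is the lowest point at -2.13.

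The pathway above the members was described from ligands to targets. Of 11 cytokine genes 5 had enough counts to be tested, and Il22 was at 0 everywhere. Il6 had 0 counts in the 3 vehicle libraries and 6, 0 and 4 counts in the esculetin libraries, too few for the filter, and without the filter it passed both thresholds (edgeR BH-adjusted p = 0.480). Il1b, the interleukin that starts the NF-κB arm, was the only one of the 5 tested cytokines past both thresholds, with 5.52, 3.50 and 1.82 CPM with vehicle and 1.15, 0.548 and 0.776 CPM with esculetin. It fell by 2.13 on the log2 scale (SE 0.42, edgeR BH-adjusted p = 0.135), and its order in the vehicle group, highest in vehicle 1 and lowest in vehicle 3, was the reverse of that of Saa1. Il1a (-0.54), Cntf (-0.22) and Ctf1 (0.13) did not pass, but Il1a did without vehicle 3 (-0.70), and it was at -0.26 without vehicle 1.

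None of 10 receptor genes passed both thresholds by edgeR, and 2 had an unadjusted p-value under 0.05, where 11.9% of all genes tested did. Il6ra, the interleukin-6 receptor, had 68.8, 72.9 and 87.9 CPM with vehicle and 114, 97.8 and 90.7 CPM with esculetin (log2 fold change 0.40, edgeR BH-adjusted p = 0.241). Lifr, the receptor of leukemia inhibitory factor, had a log2 fold change of -0.40 (edgeR BH-adjusted p = 0.357), Il22ra1 of -0.57 and Il1r1 of 0.22. Of 16 kinase and transcription factor genes, 2 passed both thresholds, both of the C/EBP family and both higher with esculetin, where 3.13% of all genes tested passed. Cebpb had 24.9, 35.6 and 30.2 CPM with vehicle and 53.7, 43.4 and 40.3 CPM with esculetin, with a log2 fold change of 0.60 (edgeR BH-adjusted p = 0.175). Cebpd had 2.79, 3.25 and 3.90 CPM with vehicle and 7.12, 3.57 and 4.60 CPM with esculetin, with a log2 fold change of 0.62 (edgeR BH-adjusted p = 0.393). Without esculetin 1 neither passed, Cebpb at 0.47 and Cebpd at 0.30, and the same held without vehicle 1, at 0.47 and 0.51. Cebpd did not pass without vehicle 2 (0.61) or with limma-voom (0.57), and Cebpb did not with total counts (0.57). The log2 fold changes of Tyk2, Relb and Nr3c1, the glucocorticoid receptor, were -0.30, -0.28 and -0.17, and those of Tyk2 and Nr3c1 had an unadjusted p-value under 0.05.

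Of 13 inhibitor and feedback genes other than Socs3, 11 were tested and none passed both thresholds by edgeR, while 3 had an unadjusted p-value under 0.05, where 11.9% of all genes tested did. Dusp1, a phosphatase of MAP kinases, had 35.9, 39.8 and 33.7 CPM with vehicle and 25.8, 26.1 and 22.5 CPM with esculetin, with a log2 fold change of -0.56 (edgeR BH-adjusted p = 0.132). Its groups did not overlap, nor did those of Bcl3, a nuclear partner of NF-κB, with a log2 fold change of -0.53 (edgeR BH-adjusted p = 0.252). These were 2 of the 11 tested, where 17.4% of all genes tested did not overlap. Without vehicle 3 (-0.61) or esculetin 2 (-0.59) Dusp1 passed both thresholds, as did Bcl3 without esculetin 1 (-0.60) or esculetin 2 (-0.59). Nfkbia, which encodes the NF-κB inhibitor IκBα, had a log2 fold change of 0.28 (edgeR BH-adjusted p = 0.369). Single libraries set the values of Cish and Socs2. Cish had 1.26, 0.890 and 14.0 CPM with vehicle and 1.40, 1.73 and 5.46 CPM with esculetin, with a log2 fold change of -0.90 that was 1.42, past both thresholds, without vehicle 3. Socs2 had 7.69, 6.41 and 9.34 CPM with vehicle and 4.63, 3.49 and 28.2 CPM with esculetin, with a log2 fold change of 0.64 that was -0.94, past both thresholds, without esculetin 3. Of 9 tested STAT3 responsive liver genes outside these lists, 1 passed, where 3.13% of all genes tested did. It was Cdkn1a, a cell cycle inhibitor, with 1.46, 1.47 and 1.75 CPM with vehicle and 2.83, 2.94 and 2.12 CPM with esculetin (log2 fold change 0.75, edgeR BH-adjusted p = 0.264). After thinning to the smallest total Cdkn1a was at 0.58 and did not pass. Myc, Pim1 and Junb had log2 fold changes of -0.56, 0.39 and 0.37, and that of Myc was 0.08 without vehicle 3 and -0.99, past both thresholds, without vehicle 1. In the edgeR fit no gene of these lists had a BH-adjusted p under 0.05. By DESeq2, 3 of the other positive genes and 3 of the cytokine, receptor, kinase, factor and feedback genes did, among them Serpina3m (DESeq2 BH-adjusted p = 0.00277), Il1b, Dusp1 (0.00126) and Cebpb (0.0107), where 193 of all genes tested did.

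The library order of the members was compared with that of 12168 genes with at least 1 CPM on average. The genes most like the members' mean were Isg20 (Pearson r = 0.996 over 6 libraries), Saa4 (0.996), Crybb3 (0.991), Gtpbp8 (0.982) and Zfp768 (0.976). For deviations from the group means they were Mrm3 (0.997), Gm15427 (0.997), Saa4 (0.996), Isg20 (0.996) and Poglut3 (0.992). Over all these genes 23 had r over 0.95 and 31 had r under -0.95 for log2 CPM, and 98 and 125 did for deviations from the group means, so values of this size also occurred among genes that ran opposite to the members. Saa4, the constitutive serum amyloid A of the same cluster, had 319, 445 and 615 CPM with vehicle and 718, 420 and 463 CPM with esculetin. Saa4 thus kept the order of Saa1 within the vehicle group over a narrower range.

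The other positive acute phase genes were set beside the same mean, as a description. Of the 34 tested, 10 had r over 0.8 with the members' mean, 29.4% against 3.94% of the 12168 genes, and their median r was 0.741 against 0.0085. They included Hpx, which encodes the heme-binding hemopexin (0.975), C4b (0.918), Lrg1 (0.913), Fgl1 (0.907) and Orm3 (0.902). Among the negative acute phase genes 1 of 11 exceeded 0.8, Apoa1 (0.942). The count was 1 of 3 for cytokines, 0 of 10 for receptors, 3 of 15 for kinases and factors, 0 of 11 for inhibitors and feedback genes and 3 of 8 for STAT3 responsive genes.

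Markers of liver cell types were read beside these patterns. Of all genes tested, 3.13% passed both thresholds. Hepatocyte markers summed to between 91580 and 95050 CPM with vehicle and between 88510 and 96880 CPM with esculetin, which fits the labelled tissue. Kupffer cell and macrophage markers summed to between 308 and 411 CPM with vehicle, highest in vehicle 3, and between 316 and 324 CPM with esculetin. None of the 8 passed both thresholds by edgeR, and 1 had an unadjusted p-value under 0.05, where 11.9% of all genes tested did. Log2 fold changes were negative for 7, as for 7440 of 14433 genes tested. The groups of 3 did not overlap, where 17.4% of all genes tested did not. Cd68, a lysosomal protein of macrophages, had 8.21, 8.87 and 10.4 CPM with vehicle and 6.84, 7.41 and 6.99 CPM with esculetin (log2 fold change -0.37, edgeR BH-adjusted p = 0.337). T and B cell markers summed to between 3.23 and 7.24 CPM over both groups, and were highest in esculetin 1. Among them Cd79a, of the B cell receptor, passed both thresholds, with 0.272, 0.368 and 0.511 CPM with vehicle and 1.31, 0.692 and 0.508 CPM with esculetin (log2 fold change 1.12, edgeR BH-adjusted p = 0.398). Of the other 5 tested, 2 had positive and 3 negative log2 fold changes, from -0.55 for Cd4 to 0.33 for Cd3d, and none passed. Cholangiocyte markers summed to 39.8, 63.2 and 80.5 CPM in the vehicle libraries and 45.7, 30.3 and 42.4 CPM in the esculetin libraries, and most of that sum was Spp1. Spp1, which encodes the secreted phosphoprotein osteopontin, had 34.7, 57.7 and 75.5 CPM with vehicle and 39.0, 23.7 and 37.3 CPM with esculetin, and it passed both thresholds with a log2 fold change of -0.75 (edgeR BH-adjusted p = 0.309). The other 4 tested cholangiocyte markers did not pass and had positive log2 fold changes, from 0.06 for Epcam to 0.63 for Krt7. No marker of the list but Spp1 exceeded 3.45 CPM, the level of Sox9 in esculetin 1. Endothelial markers summed to between 168 and 208 CPM and stellate cell markers to between 281 and 376 CPM over both groups. The other 5 stellate markers did not pass, and 4 of them had negative log2 fold changes, down to -0.37 for Col1a1. Des, which encodes the filament protein desmin of stellate cells, passed both thresholds, with 1.87, 1.72 and 1.90 CPM with vehicle and 2.39, 3.43 and 3.02 CPM with esculetin (log2 fold change 0.69, edgeR BH-adjusted p = 0.273). Of the adipocyte markers Lep and Retn were at 0 in every library, and the 6 markers together summed to between 2.19 and 3.46 CPM. Cfd, which encodes the complement protease adipsin, passed both thresholds, with 0.613, 0.246 and 0 CPM with vehicle and 1.12, 0.692 and 1.07 CPM with esculetin (log2 fold change 1.72, edgeR BH-adjusted p = 0.393). Cidec, the other adipocyte marker with enough counts to be tested, had a log2 fold change of -0.47 and did not pass. The part of these cell types in the library order of the members was not tested.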

How the data were processed

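Liver RNA was sequenced in 6 libraries, 3 per group, made with a NEBNext Ultra kit. The authors aligned reads with HISAT2 2.2.1 and deposited whole-number counts per Ensembl gene from featureCounts, not normalized. The submitters' processing notes name GRCm39 and mm10. Which annotation release was used, whether counting was stranded and what was done with multi-mapping reads are not given in the sources used here. GENCODE of GRCm39 held 54749 of the 55357 identifiers.

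Genes were kept with filterByExpr, scaled with TMM and tested in edgeR 4.0.16 (glmQLFit and glmQLFTest, R 4.3.3) with group as the only term, in a fit tested on simulated data. A call required an unadjusted p under 0.05 and a fold change over 1.5, the study's thresholds, and p-values were adjusted by Benjamini-Hochberg over all genes tested. Standard errors derive from the log2 fold change and the F statistic. CPM are TMM scaled, and log2 CPM used a prior count of 2. RPKM divide CPM by the canonical transcript length. Replicates of a group differed by at least 24.2 in chi-square per gene, so none of the 6 pairs within groups was a duplicate.

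The members and lists were chosen with earlier results of these data known. All members were named, with every gene of another response list past both thresholds, up to 4 of the largest absolute log2 fold changes, and the 5 genes most like the members. Other response genes with an unadjusted p under 0.05, Apoa1, the Serpina1 copies, Il22, Il6, the single cell type markers and the list genes named for likeness were named after their values were seen. Alternatives were DESeq2 1.42.0, limma-voom (limma 3.58.1), other scaling, filters, prior counts and fold thresholds, a replicate block, summed paralogs, thinning and each library left out.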

Additional observations from a re-analysis of the deposited data

How the results depend on the processing

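The number of members past both thresholds was 0 in the edgeR fit. It was 1 with limma-voom (Lcn2), 2 without the filter on low counts (Lcn2 and Orm2, with edgeR BH-adjusted p of 6.1e-05 and 0.00311), 1 after thinning to the smallest total (Socs3), 2 with no fold threshold (Crp and Socs3), and 0 to 3 when each library was left out. Without vehicle 1 Socs3 passed, without vehicle 3 Saa2, Orm2 and Lcn2, without esculetin 2 Orm2 and Lcn2, and without esculetin 3 Orm2, Lcn2 and Socs3. The other positive acute phase genes past both thresholds numbered 6, and 3 to 7 with each library left out. The negative ones numbered 0, 1 with no fold threshold, and 0 to 1 with each library left out. For the cytokine, receptor, kinase, factor and feedback genes the number was 3, 6 without the filter, 10 with no fold threshold, 1 with a fold change over 2, and 1 to 6 with each library left out, being 1 (Il1b) without vehicle 1, 6 without vehicle 3 and 5 without esculetin 2. Over all genes it was 452, then 776, 1711 and 217 under the same 3 settings, and 411 to 588 with each library left out. Without the filter 8 other positive genes, 1 negative gene (Serpina6) and 5 pathway genes also had an edgeR BH-adjusted p under 0.05, among 477 of all genes. The cause of these shifts was not tested.

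Among the members the sign turned for Saa1, Saa2 and Orm1. The log2 fold change of Saa1 was -0.012 with total counts and -0.050 with the replicate block, and with each library left out it ran from -0.73 to 0.61, being -0.40 without vehicle 1 and -0.012 without vehicle 2. That of Saa2 ran from -0.087 to 1.12, being -0.068 without esculetin 1, and that of Orm1 from -0.12 to 0.30, being -0.087 without esculetin 1. The replicate numbers showed no pairing over all genes, since deviations of same-numbered libraries correlated at -0.07, -0.01 and 0.0027. Whether same-numbered libraries were handled together is not given in the sources used here. With the replicate block 0 members, 5 other positive genes, 2 pathway genes and 399 of all genes passed, Orm3 (0.98) and Cebpd (0.57) no longer passed, and Hamp had an edgeR BH-adjusted p of 0.0456. The median spread of the members lay between 0.262 and 0.367 with each library left out. With 3 pooled libraries a group, intervals of Saa1, Saa2, Orm2 and Lcn2 spanned more than 1.5 log2 units.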
